A study of Homo sapiens with 6 samples.

Results

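The genes described here are the 4 human ID genes (*ID1*, *ID2*, *ID3* and *ID4*) with 6 genes of bone morphogenetic protein (BMP) signalling, the ligands *BMP4* and *BMP7*, the type I receptors *BMPR1A* and *BMPR1B*, and the inhibitory SMADs *SMAD6* and *SMAD7*. They were taken by symbol, with earlier results of these data known, and all 10 were found among the 60651 genes of the tables. Total RNA depleted of ribosomal RNA was sequenced from 6 libraries of neuroblastoma cells, a childhood tumour of the sympathetic lineage. The question was how transcript levels differ after tetracycline is given to cells described as carrying a *MYCN* transgene system under its control. A total of 3 libraries bore titles with EtOH, the ethanol vehicle, and 3 bore titles with Tet, tetracycline given for 5 days.

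The labels did not agree on the cells. The titles gave IMR-5/75, a line in which *MYCN* is amplified, and a tag spoke of a knockdown. The growth protocol instead described SK-N-SH cells with a tetracycline-inducible *MYCN* expression system, kept as single clones under G418 and blasticidin. In the methods of the study, the IMR-5/75 cells carry a *MYCN* shRNA under tetracycline control, and a second model expresses *MYCN* in SK-N-AS. No direction for MYCN is therefore attached to the groups, which keep the names EtOH and Tet. The protocol text is the same for both groups, so the EtOH cells share the transgene system and the selection with the Tet cells. GEO's labels do not say that the replicates are separate cultures, so p-values measure the spread between these libraries.

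ID proteins are helix-loop-helix proteins without a DNA-binding region. They pair with E proteins such as TCF3 and TCF12 and keep these from joining tissue-specific bHLH factors such as NEUROD1 on DNA, and they are known for holding neural crest derivatives in an undifferentiated state. BMP ligands bind a complex of type I and type II receptors, which phosphorylates SMAD1, SMAD5 and SMAD9; these join SMAD4 in the nucleus and switch on target genes, the *ID* genes and the inhibitory SMADs among them. *SMAD6* and *SMAD7* then act as feedback brakes on the receptors.

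The *ID* genes are classical BMP targets, so the DNA just before their start sites is shown. Each run is the 250 bases before the RefSeq start on GRCh38.p14, read 5′ to 3′ on the gene's own strand. Capitals mark every match on either strand to the GC-rich SMAD element GGCGCC, the SMAD box CAGAC, the E-box CACGTG, the TATA box TATAAA and the CCAAT box, the last of which was added after the letters had been seen. The windows are chr20:31605039-31605288 on the + strand for *ID1*, chr2:8681806-8682055 on the + strand for *ID2*, chr1:23559502-23559751 on the − strand for *ID3* and chr6:19837120-19837369 on the + strand for *ID4*.
ID1: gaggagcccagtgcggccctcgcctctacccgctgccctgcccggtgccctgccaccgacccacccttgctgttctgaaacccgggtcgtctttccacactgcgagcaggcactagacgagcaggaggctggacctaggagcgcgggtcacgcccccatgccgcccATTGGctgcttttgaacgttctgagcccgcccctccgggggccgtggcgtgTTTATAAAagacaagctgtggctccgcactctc
ID2: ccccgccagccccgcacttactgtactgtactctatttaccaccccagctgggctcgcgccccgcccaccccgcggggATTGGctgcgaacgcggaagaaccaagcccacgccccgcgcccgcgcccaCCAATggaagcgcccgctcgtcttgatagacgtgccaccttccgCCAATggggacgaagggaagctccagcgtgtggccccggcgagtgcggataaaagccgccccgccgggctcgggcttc
ID3: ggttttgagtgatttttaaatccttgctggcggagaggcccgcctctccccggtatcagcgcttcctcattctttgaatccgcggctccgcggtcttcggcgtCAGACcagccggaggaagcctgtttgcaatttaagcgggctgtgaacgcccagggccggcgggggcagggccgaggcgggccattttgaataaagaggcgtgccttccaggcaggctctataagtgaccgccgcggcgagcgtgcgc
ID4: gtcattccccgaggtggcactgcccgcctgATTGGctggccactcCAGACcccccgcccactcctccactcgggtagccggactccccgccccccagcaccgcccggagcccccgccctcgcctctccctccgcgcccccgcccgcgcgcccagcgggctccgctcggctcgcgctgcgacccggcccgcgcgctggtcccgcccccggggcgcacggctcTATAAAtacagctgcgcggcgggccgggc
The GC-rich SMAD element and the E-box were in none of the 4 windows, against 16.4% and 6.34% of all 35116 RefSeq windows of the same length. The SMAD box was found once each before *ID3* and *ID4*, and 38.0% of all windows hold it. TATAAA stood before *ID1*, as 2 overlapping matches on opposite strands, and before *ID4*, against 10.7% of all windows. *ID2* had 3 CCAAT boxes, *ID1* and *ID4* had 1 each and *ID3* had none, where 32.0% of windows hold at least 1. These 5 motifs are short letter matches and mark no bound site, and bases outside these windows were not searched. The window of *ID2* lies inside the interval that the tables give the gene, because the tables' model starts further upstream.

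Library totals ran from 27933378 to 40498065 counts, so a count of 3 in a library corresponds to between 0.0741 and 0.107 CPM, that is, counts after scaling every library to the same total. Such a floor covers counting error only, whereas the 95% intervals given below rest on the spread between libraries. The largest component of variation, 47.3% of the variance between libraries, did not separate the groups. It placed replicate 2 of each group at one end (60.5 for EtOH and 37.5 for Tet, against −43.1 to 0.68 for the other 4). The same 2 libraries had the lowest mitochondrial shares, 4.12% and 5.86% of counts, against 6.82% to 10.01% in the others. The next component, 26.9% of the variance, did separate the groups, from −29.1 to −26.1 for EtOH and from 18.1 to 40.2 for Tet.

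*MYCN* itself was measured at 158, 256 and 156 CPM in the EtOH libraries and 197, 200.1 and 145 CPM in the Tet libraries (TMM-normalised CPM, here and below). The groups overlapped, and the log2 fold change, given throughout as Tet minus EtOH, was −0.07 (SE 0.23, adjusted p = 0.956 in edgeR's quasi-likelihood test). Its sign turned positive without EtOH replicate 2, to 0.21, without Tet replicate 3, to 0.07, and without both replicate 2 libraries, to 0.13. With no library left out, the interval of the log2 fold change was −0.72 to 0.57, so neither a rise nor a fall of *MYCN* in Tet was found. The counts pool the endogenous gene with any transcript of the transgene that aligns there. Which of the labelled cell models the libraries hold was not tested.

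Per transcript length, the 10 genes covered a wide range of levels. In TPM (counts per exon length, scaled to a common total, mean of 6 libraries) *BMPR1A* stood at 25.0, *ID2* at 23.3, *BMPR1B* at 4.61, *ID4* at 3.21, *ID1* at 2.05, *SMAD7* at 1.69, *SMAD6* at 1.07, *BMP4* at 0.505, *BMP7* at 0.225 and *ID3* at 0.0833. The highest mean was 300.8 times the lowest. Neighbours in this order were not all distinct. *BMPR1A* was above *ID2* in 4 of 6 libraries, *ID1* above *SMAD7* in 2 of 6, *ID4* above *ID1* in 4 of 6 and *BMP4* above *BMP7* in 4 of 6. By contrast, *ID2* was above *BMPR1B*, and *BMP7* above *ID3*, in 6 of 6.

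**Figure D1:**
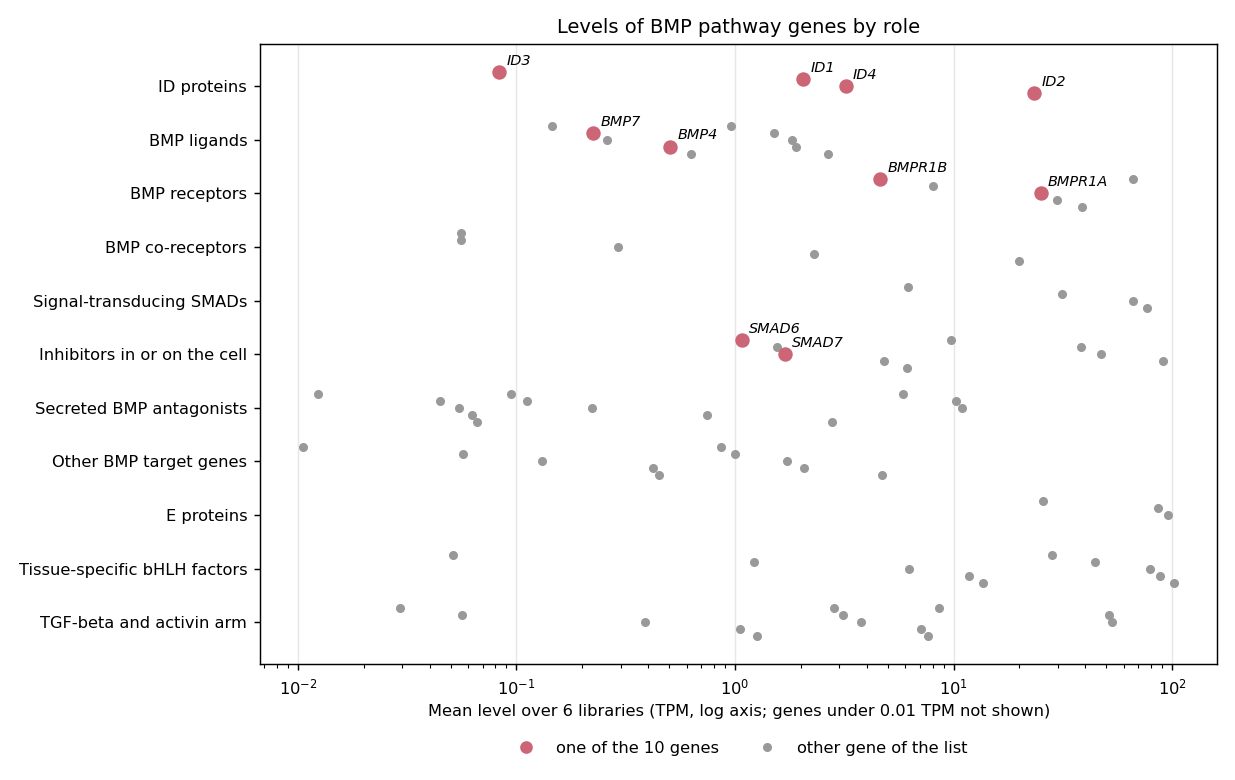
Mean level over the 6 libraries (TPM, log axis) of each gene in 11 lists ordered by role, with the 10 genes in red and labelled. *ID2* is the highest of the *ID* genes at 23.3 TPM, and the labelled ligands *BMP4* and *BMP7* lie under 1 TPM while *BMPR1A* stands at 25.0 TPM.

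*ID2*, the most abundant of the *ID* genes, lies at chr2:8678845-8684461 on the + strand (ENSG00000115738.10). It was measured at 7.70, 23.2 and 9.09 CPM in the EtOH libraries and at 20.4, 33.7 and 18.9 CPM in the Tet libraries. EtOH replicates 1 and 3 were the lowest, but EtOH replicate 2 was above Tet replicates 1 and 3, so the groups overlapped. The means were 13.3 ± 8.59 CPM (SD, n = 3) and 24.3 ± 8.12 CPM (SD, n = 3), a fitted ratio of 1.83. The log2 fold change was 0.87 (SE 0.43, adjusted p = 0.526 in edgeR), with a 95% interval of −0.32 to 2.05 from the SE and 4 residual degrees of freedom. In bulk RNA, a smaller number of expressing cells and less RNA per cell cannot be told apart.

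The value for *ID2* moved most with EtOH replicate 2 among single libraries. Without that library the groups no longer overlapped, and *ID2* had a log2 fold change of 1.54 (SE 0.27, adjusted p = 0.0226 in edgeR). Without replicate 2 of both groups, a choice made after the data had been seen, it was 1.23 (SE 0.17, adjusted p = 0.0124 in edgeR). Leaving out any of the other libraries gave values from 0.56 to 1.03, none past the threshold. Of the exon bases of *ID2*, 6.55% also lie in the antisense gene *ID2-AS1*, and reads there were divided without regard to strand.

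**Figure D2:**
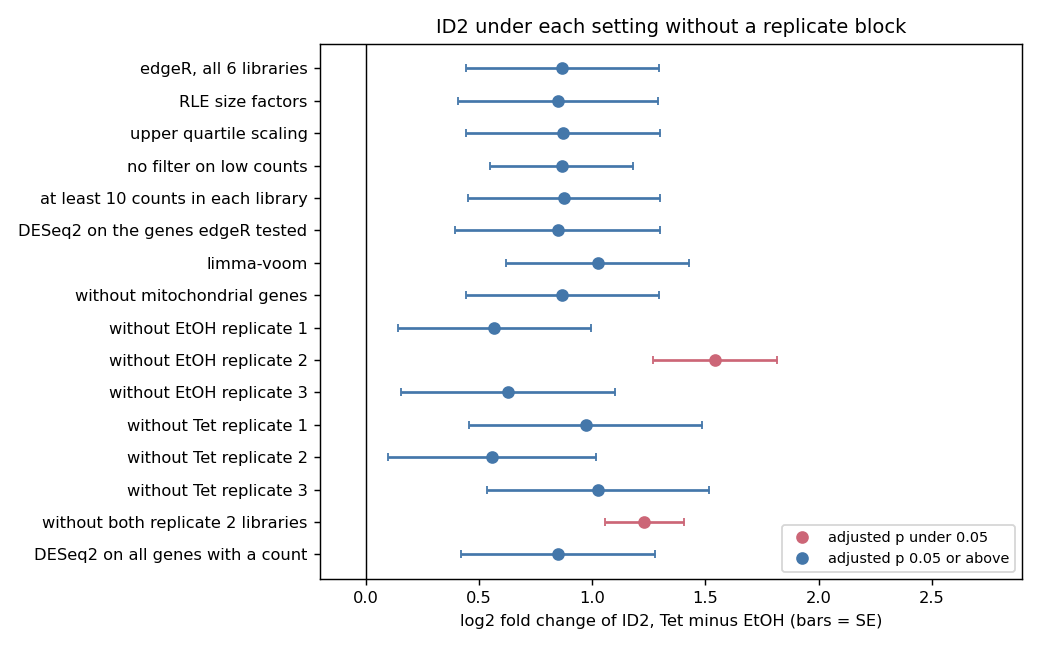
Log2 fold change of *ID2* (Tet minus EtOH, x axis) with its SE under each setting without a replicate block, red where the adjusted p is under 0.05. All values lie above 0, from 0.56 to 1.54, and the 2 red points are those without EtOH replicate 2 and without both replicate 2 libraries.

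*ID1*, best known as an early BMP target, lies at chr20:31605283-31606515 on the + strand (ENSG00000125968.9). It had 8, 55 and 3 counts in the EtOH libraries and 7, 90 and 13 counts in the Tet libraries, or 0.223, 1.98 and 0.099 CPM and 0.248, 2.54 and 0.327 CPM. Replicate 2 was far above the other libraries of its group in both groups, and the groups overlapped. The log2 fold change of 0.46 (SE 1.14, adjusted p = 0.941 in edgeR) had an interval of −2.71 to 3.64, so these counts cannot show a difference of several-fold in either direction. Without EtOH replicate 2 the value was 2.65, and without EtOH replicate 3 it was −0.07, neither past the threshold. Without Tet replicate 2 the gene no longer passed the filter on low counts.

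Across the 22443 genes tested, *ID1* was among those that set replicate 2 apart most. On the log2(CPM + 0.5) scale the replicate 2 libraries were 3.82-fold above the other 4, a ratio higher than that of 99.99% of genes tested. The offset of 0.5 pulls this ratio towards 1, because the other 4 libraries held 0.099 to 0.327 CPM of *ID1*. The ratio was 2.13 for *ID2* (99.1%) and 1.46 for *ID4* (89.8%). It was 1.67 for *SMAD6* (95.3%) and 1.15 for *SMAD7* (70.2%), whereas *BMP4* lay on the other side at 0.514 (3.79%). The mitochondrial share and the largest component, given above, moved with these libraries, and their part in the values was not tested. The SD within groups was 1.12 log2 units for *ID1* and 0.66 for *ID2*, against a median of 0.30 over all genes tested.

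*ID4*, the fourth member of the family and one expressed in the developing nervous system, lies at chr6:19837370-19842197 on the + strand (ENSG00000172201.12). It was measured at 2.26, 5.92 and 3.04 CPM in the EtOH libraries and at 5.57, 5.47 and 4.96 CPM in the Tet libraries. The Tet libraries lay close together, and EtOH replicate 2 was the highest of all 6, so the groups overlapped. The log2 fold change was 0.52 (SE 0.36, adjusted p = 0.689 in edgeR, interval −0.48 to 1.51). Without EtOH replicate 2 it was 1.01, with an adjusted p of 0.0699 in edgeR.

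*ID3*, which many cells express together with *ID1*, lies at chr1:23557926-23559501 on the − strand (ENSG00000117318.9). It had 3, 0 and 0 counts in the EtOH libraries and 0, 2 and 6 counts in the Tet libraries. It was the only one of the 10 that did not pass the filter, and a difference was not detectable at this depth. *ID2* supplied between 77.0% and 84.9% of the summed TPM of the 4 *ID* genes in every library. That sum was 11.6, 40.3 and 13.5 TPM in the EtOH libraries and 30.6, 50.9 and 24.8 TPM in the Tet libraries, again overlapping through EtOH replicate 2.

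The genes most like each *ID* gene over the 6 libraries were found by the root-mean-square difference of centred log2(CPM + 0.5) values, among up to 10089 genes of at least 5 CPM on average. For *ID2* they were *MAMDC2* (0.06 log2 units apart), *ABCA6* (0.10) and *STC1* (0.13), where the pattern of *ID2* itself had a root-mean-square of 0.73. *MAMDC2* was at 11.7, 34.7 and 12.8 CPM and at 30.7, 53.3 and 30.1 CPM in the same order of libraries, with the same EtOH replicate 2 raised. For *ID4* they were *HLF* (0.10), *ANKRD31* (0.11) and *KDM3A* (0.11), against 0.46 for *ID4* itself. For *ID1* the nearest were *NDUFB6* (0.31), *PCLAF* (0.31) and *ADAMTS5* (0.32), against 0.93 for *ID1* itself. These distances describe likeness over 6 libraries and were not tested.

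**Figure D3:**
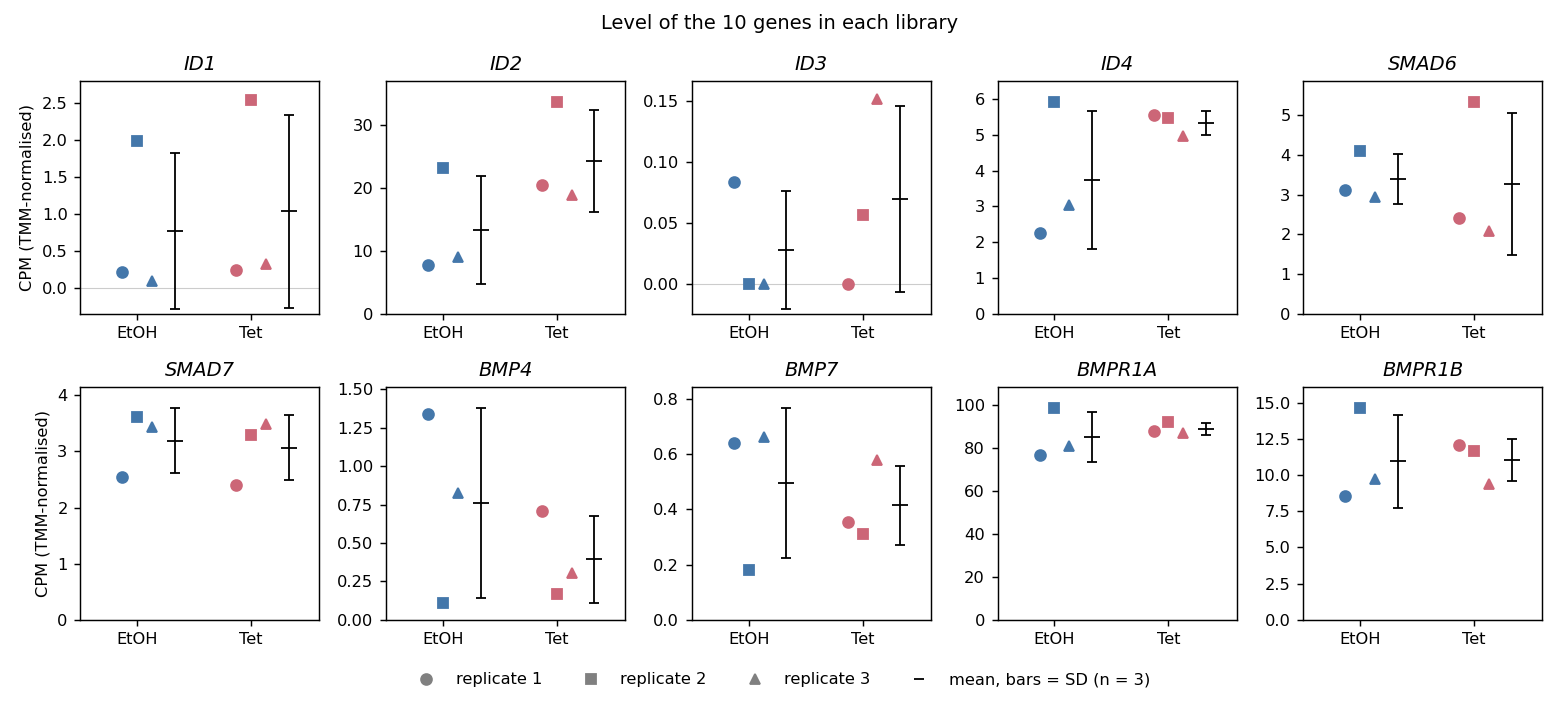
TMM-normalised CPM of the 10 genes in each library (points, shaped by replicate number) with the mean and SD of each group (n = 3), a separate linear y axis per gene. Replicate 2, drawn as squares, is the highest library of its group for *ID1* and *ID2* and the lowest for *BMP4*, and the groups overlap for all 10 genes.

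The inhibitory SMADs were near a ratio of 1 between the groups. *SMAD6*, which blocks BMP type I receptors and SMAD1, lies at chr15:66702236-66782849 on the + strand (ENSG00000137834.15). It was at 3.12, 4.11 and 2.94 CPM in EtOH and at 2.41, 5.33 and 2.09 CPM in Tet, where replicate 2 was again the highest and the Tet values spanned those of EtOH. Its log2 fold change was −0.05 (SE 0.39, adjusted p = 0.984 in edgeR, interval −1.14 to 1.04), and the sign turned without EtOH replicate 2, to 0.12, and without Tet replicate 1 or 3, to 0.13 and 0.20. *SMAD7*, which acts on BMP and TGF-beta receptors alike, lies at chr18:48919853-48952052 on the − strand (ENSG00000101665.9). It was at 2.54, 3.61 and 3.44 CPM in EtOH and at 2.41, 3.30 and 3.50 CPM in Tet, with the lowest library of each group being replicate 1. Its log2 fold change was −0.05 (SE 0.28, adjusted p = 0.978 in edgeR, interval −0.84 to 0.73).

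Both ligands were scarce. *BMP4*, which drives sympathetic neurons from neural crest in the embryo, lies at chr14:53949736-53958761 on the − strand (ENSG00000125378.16), and 16.3% of its exon bases lie in another gene. It was at 1.34, 0.108 and 0.826 CPM in EtOH and at 0.709, 0.169 and 0.302 CPM in Tet. Replicate 2 was the lowest library of each group, and the groups overlapped. The log2 fold change was −0.98 (SE 0.82, adjusted p = 0.752 in edgeR, interval −3.27 to 1.30). It ranged from −1.68 to −0.30 as single libraries were left out. *BMP7*, a ligand of kidney, bone and nervous tissue, lies at chr20:57168753-57266641 on the − strand (ENSG00000101144.13). It was at 0.642, 0.180 and 0.661 CPM in EtOH and at 0.354, 0.310 and 0.579 CPM in Tet, overlapping, with a log2 fold change of −0.25 (SE 0.58, adjusted p = 0.934 in edgeR).

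Both type I receptors were measured well above the ligands, and *BMPR1A* had the smallest spread within groups of the 9 genes tested. *BMPR1A*, the widely expressed type I receptor, lies at chr10:86756601-86932825 on the + strand (ENSG00000107779.14). It was at 76.7, 98.6 and 80.9 CPM in EtOH and at 88.1, 92.3 and 87.0 CPM in Tet, where the Tet values lay inside the range of EtOH. The log2 fold change of 0.06 (SE 0.15, adjusted p = 0.940 in edgeR) had an interval of −0.36 to 0.48. *BMPR1B*, its more restricted relative, lies at chr4:94757955-95158448 on the + strand (ENSG00000138696.11). It was at 8.54, 14.6 and 9.75 CPM in EtOH and at 12.1, 11.7 and 9.39 CPM in Tet, overlapping, with a log2 fold change of 0.01 (SE 0.25, adjusted p = 0.995 in edgeR, interval −0.68 to 0.71). The SD within groups of *BMPR1A*, 0.14 log2 units, placed it at the 10.7th percentile of all genes tested.

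In the comparison of all 6 libraries, 9 of the 10 genes were tested, and 0 passed an adjusted p of 0.05 in edgeR without a replicate block. Over all genes tested the share past that threshold was 0.236%, of which 0.147% of genes were higher and 0.0891% lower in Tet. At an unadjusted p under 0.05, 0 of the 9 passed, against 5.83% of genes higher and 4.94% lower in Tet over all genes. DESeq2 and limma-voom also called 0 of them. The groups overlapped for all 9, where 9.2% of genes tested did not overlap with Tet higher and 8.28% with Tet lower. *ID1* and *ID2*, 2 of the 9, were higher in the Tet library for every replicate number, as were 19.7% of all genes tested. The median log2 fold change of the 9 was 0.01, and that of all genes tested was −0.01.

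The rest of the pathway was read from 11 lists by role, which hold 97 genes, 87 of them besides the 10 described above. Of these 87, 60 were tested. On all 6 libraries, 0 passed the threshold in edgeR with the filter on low counts and no replicate block, or in limma-voom. DESeq2 on the genes edgeR tested called 5 (*CHRDL1*, *NEUROD4*, *NEUROG2*, *GATA2* and *NOG*), where 346 of 22443 genes were called higher and 260 lower. DESeq2 on all genes with a count called 3 (*CHRDL1*, *NEUROD4* and *NOG*), where 290 of 40467 were called higher and 209 lower. These names, and those of non-overlapping genes in the lists below, were chosen after their values were seen. At an unadjusted p under 0.05 in edgeR, 5 of the 60 were higher and 9 lower, against 5.83% and 4.94% of all genes tested. The groups did not overlap for 8 (13.3%) with Tet higher and for 11 (18.3%) with Tet lower, against 9.2% and 8.28% of all genes.

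**Figure D4:**
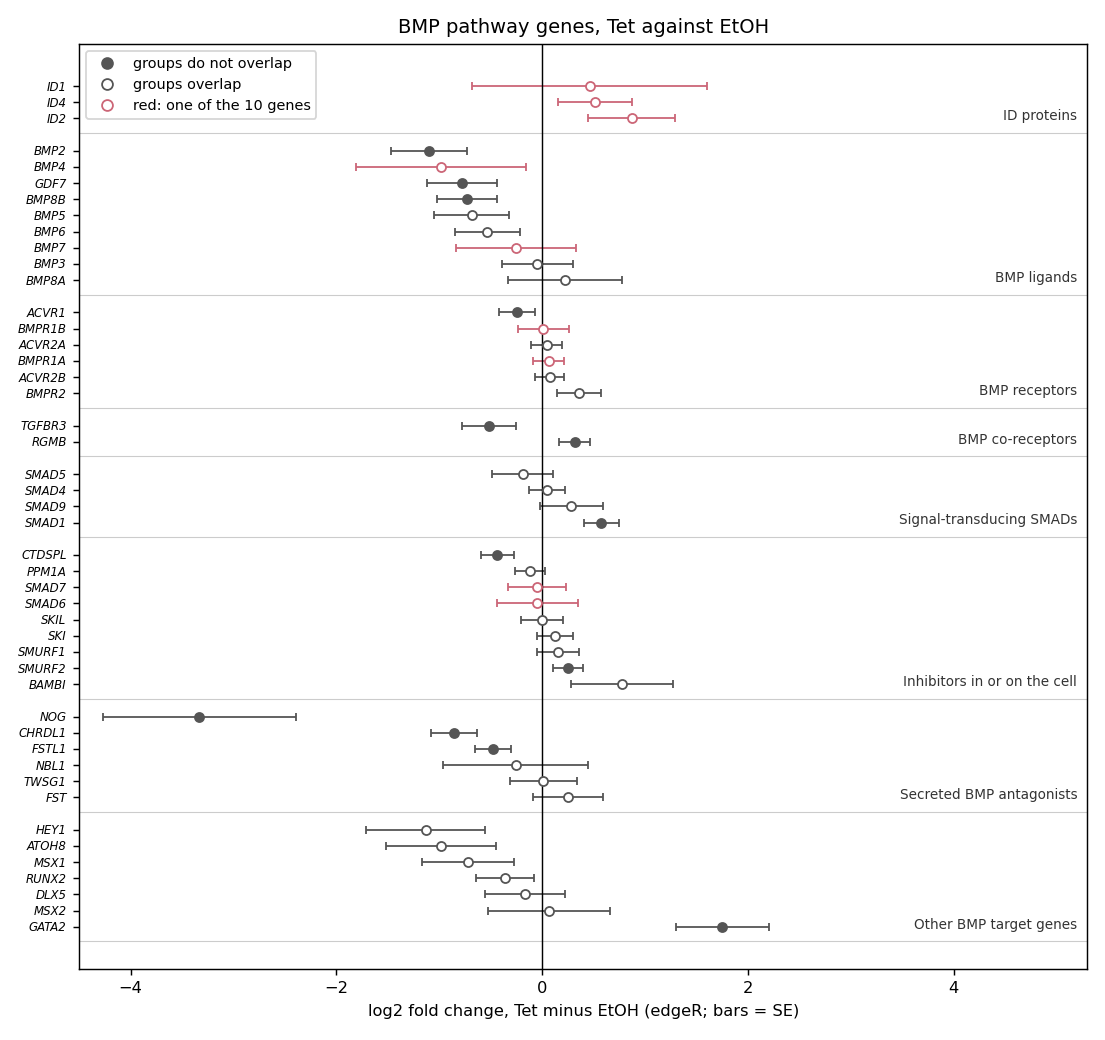
Log2 fold change (Tet minus EtOH, x axis) with its SE for the tested genes of 8 lists of the BMP pathway, filled where the groups do not overlap and red for the genes described one by one. None of the plotted genes passed the adjusted threshold in this edgeR fit, and the filled points among ligands and secreted antagonists all lie below 0, from *NOG* at −3.33 to *FSTL1* at −0.48.

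Of 14 BMP ligands, 9 were tested and 3 (*BMP10*, *BMP15* and *GDF2*) had no count in any library. The fold change was below 0 for 8 of the 9, with a median of −0.68. An unadjusted p under 0.05 in edgeR was found for 3, all lower in Tet, where 4.94% of all genes tested were lower at that p. Where 8.28% of all genes did not overlap with Tet lower, the ligands that did so were *BMP2*, *BMP8B* and *GDF7*. *BMP2*, an osteogenic ligand, was at 2.34, 4.83 and 2.68 CPM in EtOH and at 1.67, 1.78 and 1.16 CPM in Tet, a log2 fold change of −1.10 (SE 0.37, adjusted p = 0.319 in edgeR). All 3 Tet libraries lay below the lowest EtOH library. *BMP8B*, the most abundant ligand at 2.65 TPM, had a value of −0.73 (SE 0.29, adjusted p = 0.413 in edgeR). The summed ligand level ran from 12.3 to 14.2 TPM in EtOH and from 7.03 to 9.23 TPM in Tet, without overlap. This sum was not tested.

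Of 16 secreted antagonists, which bind BMP or activin ligands outside the cell, 6 were tested, with a median log2 fold change of −0.37. An unadjusted p under 0.05 in edgeR was found for 3, all lower in Tet, against 4.94% of all genes tested. *NOG*, encoding noggin, which binds BMP ligands and keeps them from their receptors, had 21, 42 and 20 counts in EtOH and 1, 8 and 0 counts in Tet. Each Tet library was below each EtOH library, at low counts throughout. The log2 fold change was −3.33 (SE 0.94, adjusted p = 0.228 in edgeR). It passed the threshold in DESeq2 on the genes edgeR tested, at −3.40 (adjusted p = 0.0217), in edgeR without the filter on low counts, at −3.34 (adjusted p = 0.0451), and in edgeR without both replicate 2 libraries, at −5.06 (adjusted p = 0.0330). With single libraries left out, none of the fits passed, and the value ran from −2.70 without Tet replicate 3 to −5.60 without Tet replicate 2. *CHRDL1*, encoding a chordin-like BMP antagonist, was at 12.4, 10.7 and 9.36 CPM in EtOH and at 6.91, 5.11 and 5.89 CPM in Tet, a log2 fold change of −0.86 (SE 0.22, adjusted p = 0.194 in edgeR). The 3 Tet libraries again lay below the EtOH libraries. *FSTL1*, the most abundant of the list at 11.0 TPM, had a log2 fold change of −0.48 (SE 0.18, adjusted p = 0.377 in edgeR), without overlap.

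Among 7 receptors, 6 were tested, and their median log2 fold change was 0.05. *ACVR2B*, a type II receptor for activins and some BMPs, was the most abundant at 66.0 TPM. *BMPR2*, the BMP type II receptor, had the value farthest from 0 of this list, 0.36 (SE 0.22, adjusted p = 0.618 in edgeR). Of 5 co-receptors, 2 were tested, *RGMB* at 0.32 (SE 0.15, adjusted p = 0.520 in edgeR) and *TGFBR3* at −0.52 (SE 0.26, adjusted p = 0.541 in edgeR). Neither overlapped between groups, where 9.2% of all genes tested did not overlap with Tet higher and 8.28% with Tet lower. All 4 signal-transducing SMADs were tested. *SMAD1*, which BMP type I receptors phosphorylate, was at 12.6, 13.8 and 12.7 CPM in EtOH and at 17.7, 21.4 and 19.2 CPM in Tet, a log2 fold change of 0.58 (SE 0.17, adjusted p = 0.259 in edgeR). All 3 Tet libraries were above all 3 EtOH libraries. *SMAD5*, the most abundant of them at 76.6 TPM, was at −0.19 (SE 0.30) with overlap.

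The list of inhibitors in or on the cell held 9 genes, all tested, with a median log2 fold change of 0.00. *SKIL*, a repressor of SMAD-driven transcription and the most abundant at 90.5 TPM, was at 0.00 (SE 0.20). *BAMBI*, a decoy receptor that BMP signalling itself switches on, was at 0.77 (SE 0.50, adjusted p = 0.653 in edgeR) with overlap. Of 10 other BMP target genes, 7 were tested and 5 had a fold change below 0, with a median of −0.36. *GATA2*, a transcription factor of sympathetic development, was the only one of the 7 whose groups did not overlap, at 0.279, 0.397 and 0.364 CPM in EtOH and 0.709, 1.30 and 1.48 CPM in Tet. Its log2 fold change was 1.75 (SE 0.45, adjusted p = 0.193 in edgeR).

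The partners of ID proteins were abundant. Of the 3 E proteins *TCF12* was the highest at 95.8 TPM, and *TCF3* had the value farthest from 0, 0.25 (SE 0.30, adjusted p = 0.843 in edgeR). Their summed level was 195 to 236 TPM in EtOH and 184 to 232 TPM in Tet, above the 11.6 to 50.9 TPM of the *ID* genes in any library. Of 12 tissue-specific bHLH factors, 9 were tested, with a median log2 fold change of 0.45. In edgeR, 2 higher and 1 lower had an unadjusted p under 0.05, against 5.83% and 4.94% of all genes tested. *NEUROD1*, a neuronal differentiation factor, was the most abundant at 101.7 TPM and was at −0.02 (SE 0.28). *NEUROD4*, a related factor, was at 2.93, 2.09 and 2.45 CPM in EtOH and 0.957, 1.13 and 0.981 CPM in Tet, a log2 fold change of −1.28 (SE 0.31, adjusted p = 0.161 in edgeR). The groups did not overlap.

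The TGF-beta and activin arm, which signals through SMAD2 and SMAD3, had 11 of 13 genes tested and a median log2 fold change of −0.18. Its type I receptor *TGFBR1* was the most abundant at 53.1 TPM, with a value of 0.61 (SE 0.26, adjusted p = 0.437 in edgeR) and overlapping groups. Without EtOH replicate 2 it was 0.91, past the threshold with an adjusted p of 0.0470 in edgeR. *TGFBR2*, the type II receptor, was at −0.74 (SE 0.28, adjusted p = 0.384 in edgeR) without overlap. These values of opposite sign were both short of the threshold in edgeR on 6 libraries without a replicate block.

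Marker lists described the cells beside these genes. The adrenergic transcription factor *GATA3* was abundant, at 225 TPM, while the catecholamine enzymes *TH* and *DBH* had totals of 1 and 36 counts over the 6 libraries. The 8 adrenergic markers summed to 529 to 562 TPM in EtOH and 589 to 673 TPM in Tet, without overlap. Of 6 tested, 4 had a fold change above 0 and 2 below 0. The 4 above 0 all had an unadjusted p under 0.05 in edgeR, against 5.83% of all genes tested that were higher. On all 6 libraries, the adjusted threshold was passed by 0 of the 6 markers in edgeR with the filter on low counts and no replicate block. In limma-voom it was also passed by 0. It was passed by 3, all higher, in edgeR without that filter and in both DESeq2 runs. Over all genes, edgeR without the filter called 185 of 40467 higher. DESeq2 called 346 of 22443 higher on the genes edgeR tested and 290 of 40467 on all genes with a count. Among the adrenergic markers *CHGA*, a granin of secretory vesicles, had the largest value at 2.18 (SE 0.65), which was 1.17 without Tet replicate 3. The 8 mesenchymal markers, led by *VIM* at 99.3 TPM, summed to 126 to 244 TPM in EtOH and 115 to 174 TPM in Tet. Of these 8, 5 had a fold change below 0, and the median was −0.30. The groups did not overlap for 2 with Tet lower and 1 with Tet higher, against 8.28% and 9.2% of all genes tested. In edgeR, 1 lower and 2 higher had an unadjusted p under 0.05, against 4.94% and 5.83% of all genes tested. On all 6 libraries, 0 of the 8 passed the adjusted threshold in edgeR without a replicate block or in limma-voom. Both DESeq2 runs called 1, *COL3A1*, higher in Tet, at 1.02 (adjusted p = 0.0139) on the genes edgeR tested. The value farthest from 0 was that of *SNAI2*, a neural crest transcription factor, at 1.84 (SE 0.70, adjusted p = 0.389 in edgeR). It ran from 1.004 without Tet replicate 2 to 2.82 without EtOH replicate 2, the latter past the threshold (adjusted p = 0.0451). The 6 Schwann cell markers summed to 1.75 to 4.15 TPM with *S100B* at 0, and the 5 blood and endothelial markers to 0.108 to 0.821 TPM with *CD3E* at 0. The part of these marker levels in the values of the *ID* genes was not tested.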

How the data were processed

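Each deposited table gave estimated counts for genes. Per the file headers, the authors trimmed and aligned reads (STAR) and used featureCounts 1.6.4 on uniquely aligned pairs. Pairs over several genes were split among them, and strand was not used. By contrast, the submitters' processing notes name STAR 2.7.1a and featureCounts 1.5.1, and the study's methods describe stranded counting on GENCODE models. The build was GRCh38. In each library 12.3% to 14.7% of genes held a fractional value, so antisense and overlapping genes share reads. The planned test assumed whole counts, and values were therefore rounded. The 92 spike-in sequences had no counts and were left out. Symbols were matched for 60437 identifiers.

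In R 4.3.3, genes were filtered with filterByExpr, scaled by TMM and tested with the quasi-likelihood test of edgeR 4.0.16 on 3 EtOH and 3 Tet libraries, without a replicate block. P-values were adjusted by Benjamini-Hochberg across the 22443 genes tested (threshold 0.05). The SE is the size of the log2 fold change divided by the square root of F. The script was tested on simulated data. Alternatives were other scalings and filters, DESeq2 1.42.0, limma 3.58.1 (voom), a replicate block, and leaving out libraries. Promoter sequences are those of RefSeq (GRCh38.p14).

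The 10 genes and the lists were chosen with earlier results of these data known. From each list the text names the gene with the highest mean TPM and the tested gene with the largest absolute log2 fold change, and, for each *ID* gene, the 3 genes most like it with at least 5 CPM on average. Circular RNAs were not analysed here.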

Additional observations from a re-analysis of the deposited data

How the results depend on the processing

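Each result was recomputed under up to 16 alternatives. *ID2* was above 0 in all 16, from 0.56 to 1.54, and *ID4* in all 16, from 0.23 to 1.01, while *BMP4* and *BMP7* were below 0 in all 15 that gave them a value. *ID3* was tested in edgeR only without the filter on low counts. *ID1* ran from −0.07 to 2.65 over 13 alternatives and could not be fitted with at least 10 counts in each library, without Tet replicate 2 or without both replicate 2 libraries. *ID2* passed the threshold in 3 of the 16, each making 1 of the 10 genes: without EtOH replicate 2 (1.54), without both replicate 2 libraries (1.23, chosen after seeing the data) and with the replicate block described below. The sign turned, at values near 0, for *BMPR1B* with RLE size factors (−0.0058), in DESeq2 on the genes edgeR tested (−0.0056) and in DESeq2 on all genes with a count (−0.0028), and for *MYCN* without both replicate 2 libraries (0.13). As single libraries were left out, the values ran from −0.0745 to 2.65 for *ID1*, −0.0322 to 0.18 for *BMPR1A*, −0.16 to 0.28 for *BMPR1B*, −0.59 to 0.20 for *SMAD6*, −0.22 to 0.0834 for *SMAD7* and −0.22 to 0.21 for *MYCN*. The causes were not tested.

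Replicate numbers were shared between the groups, and no label says that a number marks a shared culture day. Deviations from the group means correlated at 0.0793, 0.586 and 0.292 within numbers 1, 2 and 3. With other numbers they reached at most 0.419, −0.144 and 0.419, so only number 2 correlated best with itself. Deviations in a group of 3 sum to 0, so numbers 1 and 3 move together where number 2 stands apart in both groups. These correlations therefore cannot decide whether the libraries are pairs. The main test had no replicate block because the study names none. With a replicate block *ID2* was at 0.99 (adjusted p = 0.0250 in edgeR) and was the only 1 of the 10 genes past the threshold. Of the list genes, the 10 included, 7 passed, with *ID2*, *NOG* and *TGFBR1* among them. Over all 22443 genes tested, 421 were higher and 254 lower in Tet.

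Over all genes, 33 were higher and 20 lower in Tet. RLE size factors gave 13 lower. Without the filter on low counts there were 185 and 117, DESeq2 on the genes edgeR tested gave 346 and 260, DESeq2 on all genes with a count gave 290 and 209, and without both replicate 2 libraries there were 487 and 387. As single libraries were left out, the counts ran from 0 to 361 higher and from 0 to 331 lower, the most without EtOH replicate 2. List genes past the threshold, 0 in edgeR with the filter and no block on 6 libraries, numbered 2 without the filter (*NHLH2*, *NOG*), 5 and 3 in the 2 DESeq2 runs, 4 without both replicate 2 libraries (*TGFBR1*, *ID2*, *NHLH2*, *NOG*) and 0 to 2 as single libraries were left out. *ID3*, with at most 6 counts in a library, is limited by depth.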
